A study of Homo sapiens with 24 samples.

Results

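PC9 is an established line of human lung adenocarcinoma, an epithelial tumour, and its growth is driven by a mutant EGFR. The comparison described here set 3 libraries from PC9 cells taken 24 h after a change to fresh complete medium against 3 libraries from PC9 cells taken 6 h after the same change, chosen by their labels and making up 6 of the 24 libraries of the series. All 6 came from cells that were rinsed with PBS and given RPMI medium with asparagine and 0.004% DMSO, the vehicle for ISRIB, with no genetic change. The cells were plated beforehand and the medium was put on 24 h or 6 h before a common endpoint, so the 6 h cells had also spent longer in the old medium, and the time in fresh medium and the time in old medium cannot be told apart. Serum in the fresh medium was not given in the sources used here, and cells without a change of medium were not analysed here. For comparison, 3 libraries at each time came from the same medium with 200 nM ISRIB, a small molecule that keeps the translation factor eIF2B active, and 3 at each time came from vehicle-treated cells in the medium lacking asparagine. The design text calls the 3 libraries of a group biological triplicates, all of them from 1 cell line.

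As background, fresh growth medium sets off a short wave of transcription in cultured cells. Receptor signals through RAS and ERK act on SRF and the ETS factors and switch on immediate early genes such as EGR1 and the FOS family, while NF-kB switches on chemokines, cytokines and its own inhibitors, and YAP and SMAD factors switch on adhesion and matrix genes. Active growth signalling also keeps FOXO transcription factors out of the nucleus, and FOXO targets return when growth factor signalling through AKT declines. Nutrient sensors such as mTORC1, SREBP and MondoA tie transcription to the amino acids, sterols and glucose that cells draw from the medium.

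The 6 libraries held 18969587 to 21533284 counts each, with 24300 to 25096 genes detected and 7.17% to 8.95% of the counts from mitochondrially encoded genes. The dependence of the counts on the GC content of the transcript, as a slope in log2 units per 10 points of GC, was -0.0975, 0.108 and 0.0841 in the 24 h libraries and 0.0965, 0.215 and 0.0413 in the 6 h libraries. PC9 cells should carry epithelial markers, and all 9 of these were tested, with KRT8 at 3738 to 4529 CPM (counts per 1000000 counts of a library, after scaling between libraries) at 24 h and 4379 to 4767 CPM at 6 h. Of the markers of other cell types, 1 of 8 alveolar, 1 of 8 fibroblast, 3 of 8 leukocyte and 2 of 6 endothelial genes passed the filter on low counts. The 3 leukocyte genes summed to 2.26 to 2.77 CPM at 24 h and 1.97 to 2.94 CPM at 6 h. The endothelial pair summed to 9.66 to 11.2 CPM at 24 h and 24.6 to 51.6 CPM at 6 h, nearly all of it CDH5, the vascular cadherin, which fell in these epithelial cells (log2 fold change -2.68 ± 0.32), while PECAM1 rose.

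At 24 h 1626 of 17409 tested genes were higher than at 6 h and 1649 were lower (edgeR quasi-likelihood F test, Benjamini-Hochberg adjusted p below 0.05), which is 9.34% and 9.47% of the genes tested. At least 2-fold changes were as frequent in both directions, with 375 rises (2.15%) and 348 falls (2%), and among 4-fold changes 67 were falls (0.385%) and 34 were rises (0.195%). The median log2 fold change of all tested genes was 0.0005, and the median standard error was 0.174. Genes that fell were more abundant, with a median of 45.6 CPM over the 6 libraries against 10.1 CPM for those that rose and 15.1 CPM for all tested genes. Their transcripts had a median GC content of 50.3%, against 45.4% for the genes that rose, and across all genes the log2 fold change correlated with GC content at -0.13. Numbered zinc finger genes, the ZNF family of DNA-binding proteins, were singled out after their values were seen. Of the 393 tested, 70 rose and 21 fell. The number of called genes fell to 2136 without 24 h replicate 3, 2109 without 6 h replicate 2 and 2109 without 6 h replicate 3. It was 5552 with a correction for GC content. In bulk RNA, fewer cells that express a gene and less of its RNA per cell cannot be told apart.

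**Figure D1:**
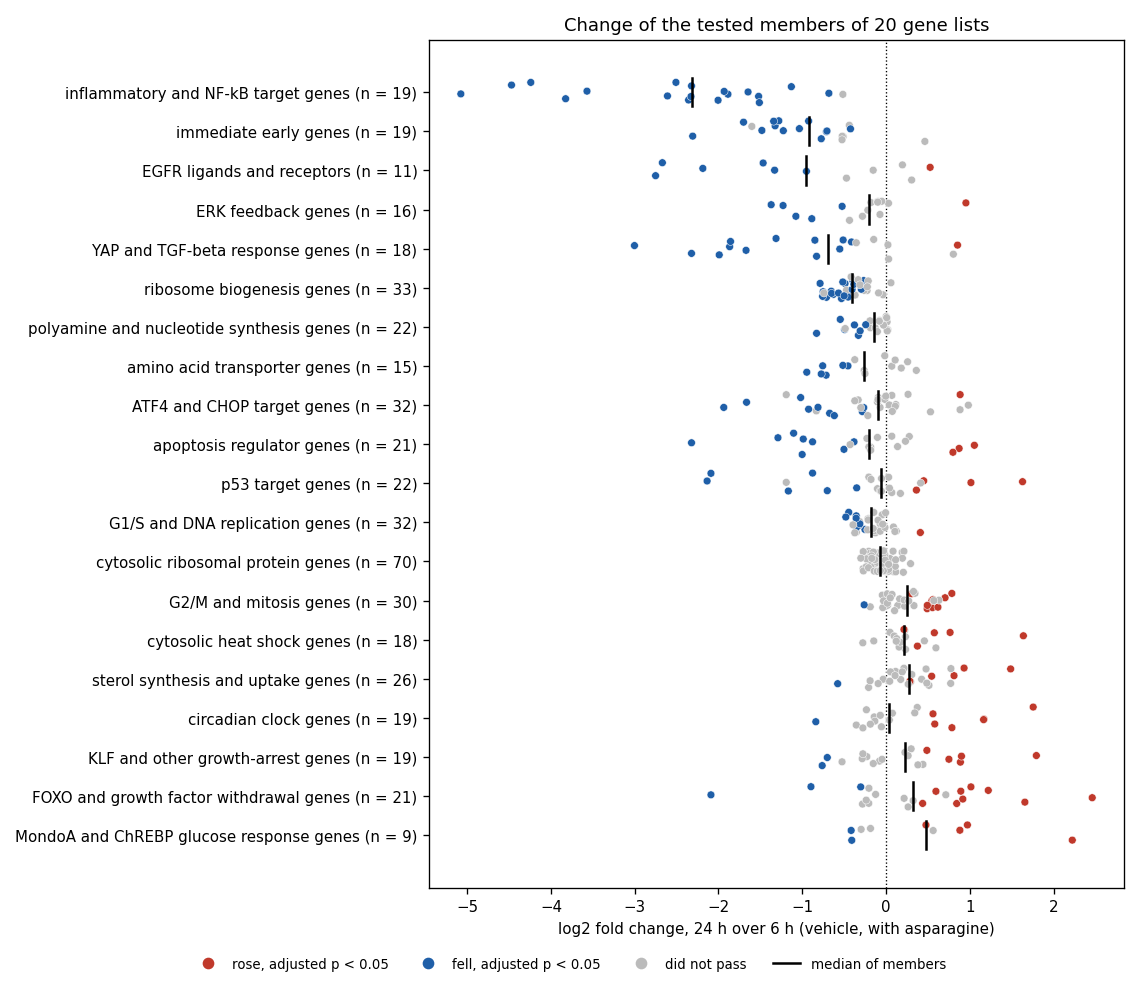
Log2 fold change (24 h over 6 h, horizontal axis) of every tested member of 20 gene lists in vehicle-treated cells with asparagine, 1 point per gene. Red points rose and blue points fell at adjusted p below 0.05, grey points did not pass, and black bars mark the median of a list. The inflammatory and NF-kB targets lie furthest left with a median of -2.32, and the cytosolic ribosomal protein genes lie around 0 with no call.

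Inflammatory and NF-kB target genes formed the list with the lowest median. Of 19 tested members 18 fell and none rose, where 9.47% of all genes fell. The median log2 fold change was -2.32 against 0.0005 for all genes. In 18 of the 19 the CPM of the 24 h libraries did not overlap those of the 6 h libraries, a separation that 41.4% of all tested genes showed in 1 direction or the other. NF-kB binds short elements in promoters, and 12 of the 17 members with a RefSeq promoter (70.6%) held the letters GGNNTTTCC on either strand within 250 bases before and 50 after the start, as did 2198 of all 35116 promoters (6.26%). The promoters of 4 members that fell are printed because they show this element in a chemokine gene, in NFKBIA and TNFAIP3, which restrain NF-kB, and in an adhesion gene. They are RefSeq sequence of GRCh38.p14, written 5′ to 3′ on the strand of the gene, with the matches in capitals. A match is a description of the letters and was not tested for binding. The list was chosen as known NF-kB targets, so a high share was built into it and says nothing about the fall. For each member the first promoter entry was taken, while the share over all promoters used every entry. The windows are chr4:73740319-73740618 (plus strand), chr14:35404700-35404999 (minus strand), chr6:137867009-137867308 (plus strand) and chr19:10270870-10271169 (plus strand).
CXCL8: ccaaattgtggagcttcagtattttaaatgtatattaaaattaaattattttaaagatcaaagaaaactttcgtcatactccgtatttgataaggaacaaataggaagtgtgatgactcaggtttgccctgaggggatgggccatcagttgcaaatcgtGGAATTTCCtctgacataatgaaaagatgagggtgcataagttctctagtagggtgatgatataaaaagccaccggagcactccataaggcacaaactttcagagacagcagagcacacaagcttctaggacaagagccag
NFKBIA: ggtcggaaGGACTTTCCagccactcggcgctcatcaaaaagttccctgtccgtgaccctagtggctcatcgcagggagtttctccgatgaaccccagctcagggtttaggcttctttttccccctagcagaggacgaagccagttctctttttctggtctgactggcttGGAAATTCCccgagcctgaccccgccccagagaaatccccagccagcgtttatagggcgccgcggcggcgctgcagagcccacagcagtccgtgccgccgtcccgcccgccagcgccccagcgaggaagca
TNFAIP3: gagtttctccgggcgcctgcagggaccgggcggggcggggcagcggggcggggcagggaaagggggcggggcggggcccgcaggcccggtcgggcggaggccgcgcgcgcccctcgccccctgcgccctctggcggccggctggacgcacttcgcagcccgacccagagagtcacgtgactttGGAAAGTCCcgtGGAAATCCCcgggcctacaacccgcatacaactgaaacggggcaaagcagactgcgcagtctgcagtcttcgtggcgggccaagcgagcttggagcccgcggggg
ICAM1: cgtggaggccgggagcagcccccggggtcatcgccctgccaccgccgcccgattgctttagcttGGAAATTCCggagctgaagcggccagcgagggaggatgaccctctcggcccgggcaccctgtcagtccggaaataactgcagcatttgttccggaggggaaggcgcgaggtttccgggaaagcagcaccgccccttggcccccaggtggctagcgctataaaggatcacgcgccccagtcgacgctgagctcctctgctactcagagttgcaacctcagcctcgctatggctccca

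CXCL8, the neutrophil chemokine interleukin-8, had 13.0, 14.2 and 8.45 CPM at 24 h, against 217, 491 and 498 CPM at 6 h. The 2 groups were far apart, and the lowest of the 6 h libraries was replicate 1. The log2 fold change was -5.08 ± 0.51 (adjusted p = 1.35e-06, edgeR quasi-likelihood), the largest fall among the genes that the naming rule covered. CXCL1, a second chemokine of the same cluster on chromosome 4, had 0.724, 0.940 and 0.554 CPM at 24 h, against 7.77, 17.0 and 17.7 CPM at 6 h. PTGS2, the inducible cyclooxygenase of prostaglandin synthesis, had 8.23, 10.3 and 6.44 CPM at 24 h, against 89.9, 107 and 158 CPM at 6 h (log2 fold change -3.83 ± 0.33). Both genes were separated by time in every library, as the rule for the largest falls required. In both, 6 h replicate 1 was again the lowest of its group.

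Genes that restrain NF-kB moved with the genes it drives. TNFAIP3 encodes A20, an enzyme that ends NF-kB signalling, and had 29.3, 31.3 and 25.7 CPM at 24 h, against 220, 357 and 447 CPM at 6 h (log2 fold change -3.57 ± 0.35). NFKBIA, the inhibitor that holds NF-kB in the cytoplasm, had 36.8, 29.5 and 33.8 CPM at 24 h, against 79.5, 109 and 97.2 CPM at 6 h (-1.51 ± 0.16). In both, every 24 h library lay below every 6 h library, which the rule for the largest falls required of TNFAIP3. The subunit genes fell as well. NFKB2 had 53.9, 58.0 and 52.3 CPM at 24 h, against 182, 227 and 218 CPM at 6 h, and RELB, its partner in the non-canonical pathway, had a log2 fold change of -2.61 ± 0.31. The survival factor BIRC3 fell (-2.32 ± 0.34), as did ICAM1, the leukocyte adhesion receptor (-2.33 ± 0.25), and TNFAIP2 changed least among the abundant members (-0.68 ± 0.17, adjusted p = 0.00843). Without 6 h replicate 2 the adjusted p of TNFAIP2 was 0.0521. ICAM1 was named after its values were seen. Summed over the 19 tested members, the list took 648, 697 and 635 CPM at 24 h and 1810, 2661 and 2771 CPM at 6 h. The 3 leukocyte markers that passed the filter had the sums of a few CPM given above at both times, near the floor. A part of leukocytes in these values was not tested.

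Immediate early genes, the transcription factors that serum and growth factors switch on within minutes, gave 13 falls and no rise among 19 tested members (median log2 fold change -0.92). By comparison 9.47% of all genes fell. FOSL1, an AP-1 subunit of the FOS family, had 67.8, 110 and 69.0 CPM at 24 h, against 308, 479 and 435 CPM at 6 h (-2.31 ± 0.28, adjusted p = 8.37e-06, edgeR quasi-likelihood). SRF, the factor that binds CArG boxes in serum-responsive promoters, had 38.4, 45.1 and 42.2 CPM at 24 h, against 84.9, 110 and 98.9 CPM at 6 h (-1.23 ± 0.17). In neither gene did the times overlap. KLF4 (-1.03 ± 0.16) and MYC, the growth regulator (-0.70 ± 0.14), fell too, and 2 members that did not pass were IER2 (-0.52 ± 0.22) and KLF6 (-0.44 ± 0.21). EGR1, a zinc finger factor named after its values were seen, had 10.2, 15.2 and 9.41 CPM at 24 h, against 20.9, 36.6 and 30.8 CPM at 6 h (-1.34 ± 0.39, adjusted p = 0.0195). Its call was lost without 24 h replicate 1 (0.0763), 24 h replicate 3 (0.0848), 6 h replicate 2 (0.0869) or 6 h replicate 3 (0.0557). Summed CPM of the 19 genes were 675, 780 and 638 at 24 h and 1258, 1683 and 1527 at 6 h, with 6 h replicate 1 again the lowest of its group.

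A CArG box was found in 2 of the 14 members with a RefSeq promoter (14.3%) and in 1.29% of all promoters. Members that fell were not compared with other genes for it, and the list was chosen as serum-responsive genes. Both are printed, with the boxes in capitals, because EGR1 and SRF each hold a pair of them within the window and both genes fell. The windows are chr5:138465229-138465528 and chr6:43171019-43171318, both on the plus strand of GRCh38.p14 in RefSeq.
EGR1: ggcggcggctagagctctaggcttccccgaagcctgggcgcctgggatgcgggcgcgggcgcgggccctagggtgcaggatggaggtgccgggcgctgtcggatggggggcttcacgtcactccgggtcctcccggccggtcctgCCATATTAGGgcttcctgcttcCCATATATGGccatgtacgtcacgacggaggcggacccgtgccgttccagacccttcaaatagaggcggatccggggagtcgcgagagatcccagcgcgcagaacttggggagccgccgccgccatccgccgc
SRF: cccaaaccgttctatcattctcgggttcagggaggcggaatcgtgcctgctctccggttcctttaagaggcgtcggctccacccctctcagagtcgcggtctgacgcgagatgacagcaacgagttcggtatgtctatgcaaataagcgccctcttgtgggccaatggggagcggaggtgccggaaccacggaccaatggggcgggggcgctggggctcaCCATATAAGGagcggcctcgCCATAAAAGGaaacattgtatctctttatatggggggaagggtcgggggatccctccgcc

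Of 11 tested ligands, receptors and partners of the EGF receptor, the driver of this line, 6 fell, 1 rose and 4 did not pass (median -0.95). By comparison 9.47% of all genes fell and 9.34% rose. AREG, the ligand amphiregulin, had 18.5, 17.8 and 12.2 CPM at 24 h, against 62.1, 127 and 120 CPM at 6 h (log2 fold change -2.67 ± 0.33). HBEGF, the heparin-binding ligand, had 8.86, 9.31 and 7.40 CPM at 24 h, against 32.8, 69.7 and 69.8 CPM at 6 h (-2.75 ± 0.35). For TGFA the values were 124, 122 and 103 CPM at 24 h, against 287, 317 and 362 CPM at 6 h (-1.47 ± 0.14). None of the 3 ligands overlapped between times, which the rule for the largest falls required of AREG and HBEGF. EREG, encoding epiregulin and lying next to AREG on chromosome 4, fell by a similar amount (-2.19 ± 0.38), whereas BTC, encoding betacellulin in the same neighbourhood, did not pass (-0.15 ± 0.16). EREG was named after its values were seen. In GENCODE release 29 on hg38, CXCL8 (chr4:73740506-73743716), CXCL1 (chr4:73869393-73871242), EREG (chr4:74365143-74388751), AREG (chr4:74445134-74455009) and BTC (chr4:74744759-74794686) lie in this order along chromosome 4. The receptor EGFR had 874, 886 and 803 CPM at 24 h, against 1572, 1498 and 1883 CPM at 6 h (-0.95 ± 0.13), while ERBB2 did not pass (0.31 ± 0.17). The receptor gene was thus separated by time in every library.

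Among 16 genes of the ERK feedback list, which holds inhibitors of ERK signalling and other genes that ERK induces, 5 fell and 1 rose. By comparison 9.47% of all genes fell and 9.34% rose. The rise was in SPRY1 (0.95 ± 0.19), an inhibitor named after its values were seen. The phosphatase genes DUSP7 (-1.08 ± 0.15) and DUSP5 (-1.23 ± 0.18), the Sprouty gene SPRY4 (-0.89 ± 0.14) and the cyclin gene CCND1 (-0.52 ± 0.08) fell. DUSP6 (0.03 ± 0.14) and SPRED1 (-0.10 ± 0.15), a phosphatase and an inhibitor of the same pathway, did not pass. The median of the list was -0.20. ETS1, a transcription factor that ERK phosphorylates, was outside these lists and among the 15 largest falls, with 25.1, 24.2 and 19.2 CPM at 24 h and 104, 152 and 163 CPM at 6 h (-2.61 ± 0.24).

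Of 18 tested genes that YAP and TGF-beta signalling drive 12 fell, 1 rose and 5 did not pass (median -0.69). By comparison 9.47% of all genes fell and 9.34% rose. ANKRD1, a YAP target that codes for an ankyrin repeat protein, had 6.56, 5.78 and 3.57 CPM at 24 h, against 29.5, 56.3 and 42.4 CPM at 6 h (log2 fold change -3.00 ± 0.36). The times were separated in all libraries, as the rule for the largest falls required. Tissue factor F3, which starts blood clotting (-1.67 ± 0.22), and PMEPA1, a SMAD target (-0.85 ± 0.09), fell as well. The SMAD target genes SKIL (0.02 ± 0.16) and SMAD7 (0.03 ± 0.16) did not pass. ID1, an inhibitor of helix-loop-helix transcription factors and named after its values were seen, was the rise (0.85 ± 0.22), and its call was lost without 6 h replicate 3 (adjusted p = 0.0602). Secreted signals outside the list that were among the 15 largest falls were EDN1, encoding the vasoconstrictor endothelin-1 (-2.79 ± 0.35), and FST, encoding the activin antagonist follistatin (-3.04 ± 0.36). The list of apoptosis regulators shared this direction in part, with 8 falls and 3 rises among 21 (median -0.20). Death receptor genes TNFRSF10A (-1.29 ± 0.17) and TNFRSF10B (-0.88 ± 0.11) fell, and so did the survival genes CFLAR (-0.99 ± 0.13) and BCL2L1 (-1.10 ± 0.15). BAX (-0.10 ± 0.19) and FAS (0.07 ± 0.25) did not pass.

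The remaining genes with the largest falls included SERPINB2, a protease inhibitor (log2 fold change -4.21 ± 0.51), the cytoskeletal gene NAV3 (-2.46 ± 0.20) and PDCD1LG2, encoding the checkpoint ligand PD-L2 (-2.39 ± 0.28). CD274, encoding PD-L1, was the member of the MHC and antigen presentation list with the lowest p and had 4.57, 5.03 and 3.92 CPM at 24 h, against 14.3, 17.9 and 20.8 CPM at 6 h (-1.97 ± 0.29). Of the 7 tested members of that list 1 fell and 1 rose, where 9.47% of all genes fell and 9.34% rose. The rise was in B2M, the light chain of MHC class I (0.57 ± 0.19), and its call was lost when any library other than 24 h replicate 3 was left out (adjusted p 0.0659 to 0.150).

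**Figure D2:**
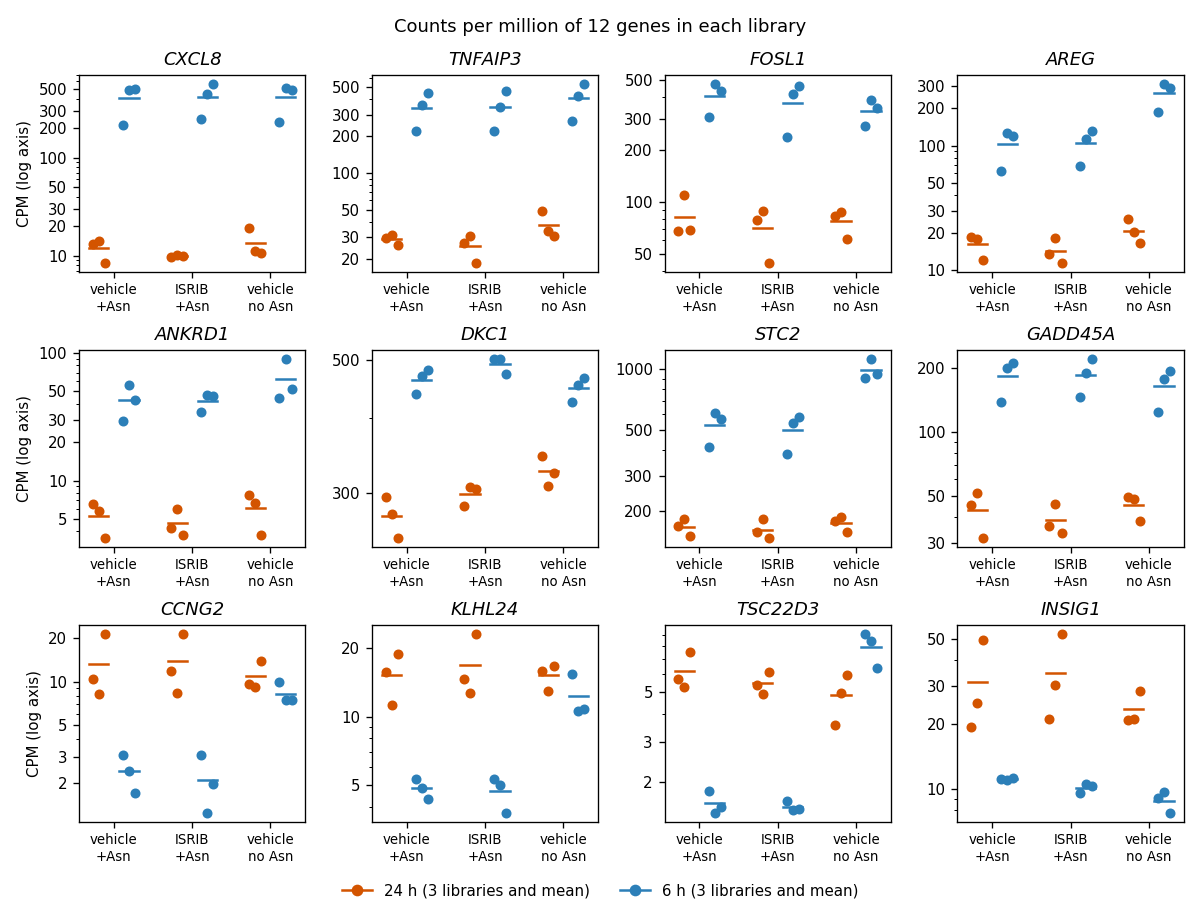
CPM on a log axis for 12 genes in each of 18 libraries, with 24 h (orange) left of 6 h (blue) for vehicle with asparagine, ISRIB with asparagine and vehicle without asparagine. Points are single libraries and bars are means of 3. CXCL8 lies between 8.45 and 14.2 CPM at 24 h in vehicle with asparagine and between 217 and 498 CPM at 6 h, and CCNG2 shows the reverse order, with at least 8.27 CPM at 24 h and at most 3.13 CPM at 6 h.

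Of 33 ribosome biogenesis genes, which serve to make ribosomes, 20 fell, none rose and 13 did not pass, with a median of -0.41, where 9.47% of all genes fell. In 29 of the 33 the times did not overlap, as in 41.4% of all genes. DKC1, the pseudouridine synthase dyskerin, had 296, 277 and 253 CPM at 24 h, against 439, 470 and 482 CPM at 6 h (log2 fold change -0.75 ± 0.09, adjusted p = 5.24e-06, edgeR quasi-likelihood). The nucleolar genes NOP16 (-0.71 ± 0.10), RRP12 (-0.76 ± 0.12) and NOLC1 (-0.63 ± 0.11) fell by similar amounts, and NPM1 (-0.04 ± 0.23) and POLR1B, a subunit of RNA polymerase I (0.06 ± 0.13), did not pass. The cytosolic ribosomal protein genes themselves gave no call among 70 tested (median -0.07, range -0.30 to 0.29), and reads of these genes can be split with their many pseudogenes. The number of biogenesis genes that fell was 13 without 6 h replicate 3.

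Among 22 genes of polyamine and nucleotide synthesis 7 fell and none rose, where 9.47% of all genes fell. CTPS1, which makes CTP, had 117, 120 and 104 CPM at 24 h, against 175, 208 and 222 CPM at 6 h (-0.83 ± 0.10), and ODC1, the first enzyme of polyamine synthesis, fell by less (-0.49 ± 0.10). ADSL (0.00 ± 0.07) and PRPS2 (0.01 ± 0.09) did not pass. The 7 falls became 4 without 24 h replicate 3 and 4 without 6 h replicate 2. Of 15 amino acid transporter genes 6 fell and none rose. SLC7A1, the arginine and lysine carrier, had 153, 172 and 158 CPM at 24 h, against 291, 317 and 324 CPM at 6 h (-0.95 ± 0.12), and SLC7A6 (-0.76 ± 0.13), SLC3A2 (-0.71 ± 0.13) and SLC38A1 (-0.52 ± 0.12) fell too. SLC38A7 (-0.01 ± 0.13) and SLC6A9 (0.07 ± 0.20) did not pass.

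Targets of ATF4 and CHOP, the transcription factors of the integrated stress response, gave 9 falls and 1 rise among 32 tested, with a median of -0.10. By comparison 9.47% of all genes fell and 9.34% rose. STC2, a secreted glycoprotein gene, had 169, 183 and 152 CPM at 24 h, against 417, 610 and 570 CPM at 6 h (log2 fold change -1.67 ± 0.15). PPP1R15A, encoding the GADD34 subunit that reverses eIF2 phosphorylation, had 53.5, 55.4 and 44.0 CPM at 24 h, against 143, 231 and 211 CPM at 6 h (-1.94 ± 0.24). ATF4 itself had 389, 400 and 390 CPM at 24 h, against 569, 652 and 659 CPM at 6 h (-0.67 ± 0.10). The 3 genes kept the times apart in all libraries. ATF5 fell (-0.81 ± 0.11), while PSAT1, an enzyme of serine synthesis (-0.01 ± 0.14), and CLIC4 (0.00 ± 0.18) did not pass. ASNS, the asparagine synthetase gene and named after its values were seen, did not pass in this complete medium, with 28.8, 27.3 and 25.6 CPM at 24 h and 30.8, 26.7 and 29.5 CPM at 6 h (-0.09 ± 0.10, adjusted p = 0.583). Of 18 aminoacyl-tRNA synthetase genes, HARS (-0.38 ± 0.06) and SARS (-0.25 ± 0.06) fell and none rose, and SARS did not pass without a filter on low counts (adjusted p = 0.219). These falls are near the share among all genes.

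FOXO and growth factor withdrawal genes included the largest rise among the genes the rule covered. Of 21 tested 9 rose and 3 fell, with a median of 0.32, where 9.34% of all genes rose and 9.47% fell. CCNG2, encoding the atypical cyclin G2 that FOXO induces in arrested cells, had 10.5, 8.27 and 21.2 CPM at 24 h, against 3.13, 2.40 and 1.70 CPM at 6 h (log2 fold change 2.46 ± 0.39, adjusted p = 0.000162, edgeR quasi-likelihood). All 24 h values lay above all 6 h values, which the rule for the largest rises required. Replicate 3 was highest at 24 h and lowest at 6 h. KLHL24, a ubiquitin ligase adaptor gene, had 15.7, 11.3 and 18.8 CPM at 24 h, against 5.30, 4.85 and 4.34 CPM at 6 h (1.66 ± 0.22). TRIB2, a pseudokinase gene, had 20.8, 19.6 and 21.3 CPM at 24 h, against 11.6, 10.2 and 10.9 CPM at 6 h (0.92 ± 0.11). TRIB2 was separated by time in every library, as was KLHL24, for which the same rule required it. BCL6, a transcriptional repressor and FOXO target named after its values were seen, rose by 1.22 ± 0.21. IRS1 (-0.12 ± 0.15) and CITED2 (-0.20 ± 0.16) did not pass. GADD45A went the other way, with 45.3, 51.7 and 31.9 CPM at 24 h, against 139, 199 and 211 CPM at 6 h (-2.09 ± 0.26). It is a stress and DNA damage gene that p53 and ATF4 also control. The forkhead element GTAAACA was present on either strand in 3 of the 18 members with a RefSeq promoter (16.7%) and in 3.42% of all promoters. Members that rose were not compared with other genes for it, and the list was chosen as FOXO related.

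Other genes linked to slowed growth and nutrient sensing were mixed. Of 9 MondoA and ChREBP genes, which respond to glucose, 4 rose and 2 fell (median 0.48). By comparison 9.34% of all genes rose and 9.47% fell. PDK4, a kinase that inhibits pyruvate dehydrogenase, had 2.40, 1.97 and 3.07 CPM at 24 h, against 0.454, 0.522 and 0.598 CPM at 6 h (2.22 ± 0.32). HBP1, a repressor of the cell cycle (0.88 ± 0.13), and the arrestin gene ARRDC3 (0.97 ± 0.23) rose, and ARRDC4 fell (-0.41 ± 0.11). The call of ARRDC4 was lost without 24 h replicate 3 (adjusted p = 0.0753) and without 6 h replicate 1 (0.0624). The 2 falls of the list numbered 0 without either of those libraries and 1 without any of the other 4. Among 19 KLF and other growth-arrest genes 5 rose, such as KLF9 (0.89 ± 0.18) and GAS1 (1.79 ± 0.41), and MXD1 (-0.76 ± 0.12) and BTG2 (-0.70 ± 0.16) fell. Glucocorticoid receptor targets split, with 2 rises and 3 falls among 11. TSC22D3, encoding the leucine zipper protein GILZ, had 5.74, 5.26 and 7.55 CPM at 24 h, against 1.82, 1.46 and 1.55 CPM at 6 h (1.94 ± 0.24), whereas DUSP1 (-2.32 ± 0.34) and SGK1 (-1.32 ± 0.23) fell and PER1 did not pass (0.04 ± 0.21).

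Of 19 circadian clock genes 6 rose and 1 fell, where 9.34% of all genes rose and 9.47% fell. The falls numbered 2 without 24 h replicate 1. BHLHE41, a repressor also known as DEC2, had 63.5, 54.8 and 74.4 CPM at 24 h, against 28.4, 25.9 and 31.4 CPM at 6 h (1.17 ± 0.14, adjusted p = 1.05e-05, edgeR quasi-likelihood). DBP, a transcription factor driven by the clock, had 4.66, 5.45 and 7.35 CPM at 24 h, against 1.72, 2.14 and 1.30 CPM at 6 h (1.76 ± 0.27). Neither gene overlapped between the times. NFIL3, a repressor that acts on the same sites as DBP, rose (0.79 ± 0.10), and ARNTL2 fell (-0.84 ± 0.19). Among core genes ARNTL, the activator BMAL1 and named after its values were seen, rose (0.58 ± 0.14), and PER1 (0.04 ± 0.21) and NR1D2 (-0.06 ± 0.17) did not pass. A pair of time points cannot describe a cycle.

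Cell cycle genes changed little in size. Of 30 G2/M and mitosis genes 9 rose and 1 fell (median 0.25), and of 32 G1/S and DNA replication genes 8 fell and 1 rose (median -0.18). By comparison 9.34% of all genes rose and 9.47% fell. CDC25C, the phosphatase that starts mitosis, had 27.4, 26.9 and 33.6 CPM at 24 h, against 17.9, 16.8 and 16.2 CPM at 6 h (0.79 ± 0.12), and KIF20A, a motor of cytokinesis, rose by 0.56 ± 0.13. AURKB (0.02 ± 0.12) and CDC20 (0.02 ± 0.14) did not pass. On the replication side MCM3, a helicase subunit, fell (-0.25 ± 0.06, but adjusted p = 0.183 without a filter on low counts), RFC4 rose (0.41 ± 0.09), and TYMS (-0.01 ± 0.12) did not pass. The G2/M rises numbered 2 without 24 h replicate 1, 2 without 24 h replicate 3, 2 without 6 h replicate 2 and 3 without 6 h replicate 3, and the G1/S falls numbered 4, 4, 3 and 4 without the same libraries. With a correction for GC content they were 14 and 13.

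Among 13 genes of G1 control 2 rose and 2 fell, where 9.34% of all genes rose and 9.47% fell. CDKN1A, encoding the cell cycle inhibitor p21, had the smallest p of the 13. It had 15.8, 18.6 and 15.7 CPM at 24 h, against 56.5, 82.2 and 81.8 CPM at 6 h (log2 fold change -2.14 ± 0.23). The inhibitor CDKN2C moved the other way, with 7.15, 6.77 and 8.25 CPM at 24 h, against 4.64, 3.76 and 2.39 CPM at 6 h (1.04 ± 0.21), and CDKN2A (-0.27 ± 0.18) and CDKN2B (-0.12 ± 0.14) did not pass. The 2 called inhibitors were thus separated by time in opposite directions. Among 22 p53 target genes 6 fell, CDKN1A, GADD45A, TNFRSF10B and AEN (-1.17 ± 0.21) with the lowest p, and 4 rose. PHLDA3 (-0.05 ± 0.20) did not pass. The 4 rises became 2 or fewer without 24 h replicates 1, 2 or 3 or 6 h replicates 2 or 3, with 1 left without 6 h replicate 3.

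Of 26 sterol synthesis and uptake genes 5 rose and 1 fell (median 0.28), where 9.34% of all genes rose and 9.47% fell. INSIG1, the sterol sensor that retains SREBP in the endoplasmic reticulum, had 19.5, 25.0 and 49.5 CPM at 24 h, against 11.2, 11.0 and 11.2 CPM at 6 h (log2 fold change 1.49 ± 0.28, adjusted p = 0.000846, edgeR quasi-likelihood). The 24 h values spread widely, with replicate 3 the highest, and all lay above the 6 h values, as the rule for the largest rises required. HSD17B7 (0.93 ± 0.17), SQLE (0.55 ± 0.11) and MSMO1 (0.81 ± 0.21), enzymes of cholesterol synthesis, rose, and FDPS (-0.03 ± 0.08) and PMVK (0.05 ± 0.14) did not pass. The call of MSMO1 was lost without 24 h replicate 3 (adjusted p = 0.0659) and without 6 h replicate 2 (0.0629). The fall was lost without 24 h replicate 1, 6 h replicate 2 or 6 h replicate 3. The 5 rises became 3 without either 24 h replicate 3 or 6 h replicate 2, and 12 with a correction for GC content. Of 14 fatty acid genes 4 rose, among them PNPLA3, a lipid droplet hydrolase gene (1.14 ± 0.24), and FASN did not pass (0.05 ± 0.26). The 4 became 1 without 24 h replicate 3 and 8 with the GC correction. Of 8 sterol efflux genes 3 rose, led by MYLIP, a ubiquitin ligase gene (0.92 ± 0.17), and ABCA1 did not pass (-0.23 ± 0.38). Without 24 h replicate 3 that count was 1.

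Cytosolic heat shock genes gave 5 rises and no fall among 18 (median 0.22), where 9.34% of all genes rose and 9.47% fell. DNAJB4, an HSP40 co-chaperone gene, had 42.7, 26.8 and 44.9 CPM at 24 h, against 16.2, 10.2 and 10.3 CPM at 6 h (log2 fold change 1.64 ± 0.38), and HSPH1 rose by 0.58 ± 0.14, while HSPA4 (0.05 ± 0.15) and HSPD1 (0.10 ± 0.14) did not pass. The times did not overlap for DNAJB4, as the rule for the largest rises required. Its 24 h values differed from each other by more than its 6 h values. The 5 rises numbered 2 without 24 h replicate 1 and 3 without 24 h replicate 3, 6 h replicate 2 or 6 h replicate 3. Hypoxia response genes were divided, with 5 rises such as P4HA2, a collagen hydroxylase (0.46 ± 0.11), and 2 falls, VEGFA (-0.62 ± 0.13) and ADM (-0.79 ± 0.18), among 19. The 5 rises became 3 without 24 h replicate 3, 6 h replicate 1 or 6 h replicate 2, and 11 with the GC correction. Of 19 glycolysis genes 2 fell and 1 rose, near or below the shares among all genes. The hexokinase gene HK2 (-0.73 ± 0.12) and the glucose transporter gene SLC2A1 (-0.54 ± 0.16) fell and the aldolase gene ALDOC rose (0.55 ± 0.17), while LDHA (0.02 ± 0.08) and SLC2A3 (-0.02 ± 0.14) did not pass. The call of SLC2A1 was lost without 24 h replicate 1 or 3 or 6 h replicate 2 or 3 (adjusted p 0.0613 to 0.115), and that of ALDOC without any library but 24 h replicate 1 (0.0583 to 0.184) and without a filter on low counts (0.0741). Of 22 genes for chaperones of the endoplasmic reticulum and the unfolded protein response 1 fell and none rose (median -0.07), below the shares among all genes. The falls numbered 0 without 24 h replicate 1 or 2 or 6 h replicate 1 or 2, and 5 with the GC correction.

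HMOX1, the haem oxygenase, rose by 0.85 ± 0.14 among 24 NRF2 targets, of which 2 rose and 2 fell. By comparison 9.34% of all genes rose and 9.47% fell, and several counts in this paragraph are near these shares. The rises numbered 1 without 24 h replicate 3, and the falls numbered 1 without 24 h replicate 1, 24 h replicate 3 or 6 h replicate 2. TIPARP, a target of the aryl hydrocarbon receptor, had a log2 fold change of -0.89 ± 0.17 in a list of 9 with 3 falls and 1 rise, and its falls numbered 1 without 24 h replicate 2, 24 h replicate 3 or 6 h replicate 2. The rise was in the receptor gene AHR (0.42 ± 0.14), and its call was lost without any 1 of the 6 libraries (adjusted p 0.0545 to 0.170). SLC40A1, the iron exporter ferroportin, rose (1.07 ± 0.21) and was the only call among 8 iron response genes. The autophagy and lysosome list had 4 falls and 2 rises among 35, and GABARAPL1 (-0.83 ± 0.12) and MITF (-0.90 ± 0.15) fell. Its falls numbered 2 without 24 h replicate 1, 24 h replicate 2 or 6 h replicate 3, and its rises 0 without 24 h replicate 1, 6 h replicate 2 or 6 h replicate 3 and 1 without 24 h replicate 2 or 3. Interferon-stimulated genes gave 2 rises and 1 fall among 15, with STAT2 at 0.75 ± 0.12. The fall was in OASL (-1.87 ± 0.53), and it was lost without 24 h replicate 1 or 3 or 6 h replicate 2 or 3 (adjusted p 0.0539 to 0.0760). Of 16 epithelial and mesenchymal genes 2 rose and 1 fell. The splicing regulator gene ESRP1 rose (0.79 ± 0.11) and CDH1, encoding the cadherin of epithelial junctions, fell (-0.26 ± 0.08), and EPCAM did not pass (0.02 ± 0.12). The call of CDH1 was lost without 24 h replicate 2 or 3 or 6 h replicate 2 or 3 (adjusted p 0.0653 to 0.116) and without a filter on low counts (0.129). The 2 rises numbered 1 without 24 h replicate 1 or 3 or 6 h replicate 2 or 3. Of the 9 lung epithelial markers, CDH1 and EGFR fell and none rose. Notch and Wnt genes gave 2 rises and 2 falls among 13, with RNF43, a ligase that removes Wnt receptors, at 1.54 ± 0.32. Both counts were 1 without 24 h replicate 3, 6 h replicate 2 or 6 h replicate 3, and the falls also without 24 h replicate 2. Mitochondrially encoded genes (2 rises among 13), metallothionein and zinc genes (1 rise and 1 fall among 6) and histone genes (1 rise among 9) held few calls. The mitochondrial rises numbered 1 without 24 h replicate 3 and 0 without any of the other 5 libraries. The metallothionein list lost its rise without 24 h replicate 1, 6 h replicate 2 or 6 h replicate 3, and its fall without 24 h replicate 2, 24 h replicate 3, 6 h replicate 1 or 6 h replicate 2. The histone rise was lost without 6 h replicate 3.

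Further genes with the largest rises were RBBP8NL (log2 fold change 1.93 ± 0.24), RTN4RL1, a Nogo receptor relative (1.72 ± 0.24), VAV3, a guanine nucleotide exchange factor (1.61 ± 0.18), and BANP, a DNA-binding factor (1.53 ± 0.15). RBBP8NL had 8.46, 10.8 and 13.2 CPM at 24 h, against 3.68, 2.82 and 1.99 CPM at 6 h. The rule for the largest rises and falls named only genes with no overlap, so their separation is part of the selection. The others among the 15 were PLCXD3, NEURL1B, ZFP14, FAM46C, PLD1, SLC16A14 and FOXO6, at 1.28 to 1.42, besides CCNG2, KLHL24, DNAJB4 and INSIG1 given above.

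**Figure D3:**
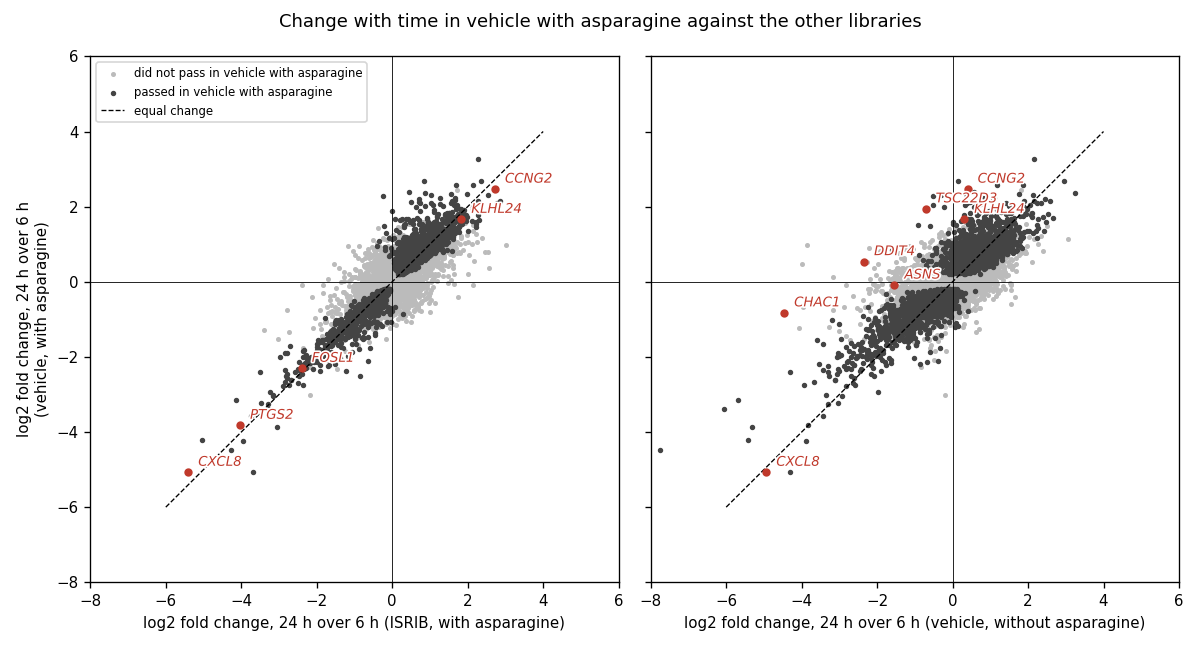
Log2 fold change of 17409 genes, 24 h over 6 h, in vehicle with asparagine (vertical axis) against ISRIB with asparagine (left panel, horizontal axis) and against vehicle without asparagine (right panel, horizontal axis). Dark points passed in vehicle with asparagine, grey points did not, red points are the genes labelled, and the dashed line marks equal change. Dark points follow the line in the left panel (r = 0.952), and in the right panel several genes, CHAC1 and DDIT4 among them, lie well to its left.

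The same contrast of times was available in cells given ISRIB, in libraries that the vehicle comparison did not use. Libraries of the same replicate number kept a similar order across treatments, so the treatments may not be independent. The inflammatory list summed at 6 h to 1810, 2661 and 2771 CPM in vehicle and 1663, 2444 and 2996 CPM with ISRIB. Without asparagine the sums were 2092, 2894 and 3127 CPM. Whether libraries of the same number shared a culture or handling was not tested. There 3024 genes passed (17.4%), and 2425 of them passed in the same direction in vehicle, which is 74.0% of the vehicle calls and 80.2% of the ISRIB calls, with none in the opposite direction. Of the 3275 vehicle calls 3259 had the same sign with ISRIB (99.5%). Across all genes the 2 sets of log2 fold changes correlated at 0.843, and across the vehicle calls at 0.952. These are correlations over genes, which are not independent replicates. CXCL8 had 9.67, 10.1 and 9.86 CPM at 24 h with ISRIB, against 247, 443 and 568 CPM at 6 h with ISRIB (log2 fold change -5.41). CCNG2 had 11.8, 8.40 and 21.4 CPM at 24 h with ISRIB, against 3.09, 1.24 and 1.96 CPM at 6 h with ISRIB (2.72). In both genes the separation seen in vehicle was there with ISRIB, and 6 h replicate 1 was again the lowest for CXCL8. The inflammatory list fell in 17 of 19 members with ISRIB (8.62% of all genes fell), the ribosome biogenesis list in 19 of 33, and the FOXO list rose in 9 of 21 (8.75% of all genes rose).

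The difference of the time effect between vehicle and ISRIB gave 0 called genes of 17409 in edgeR's quasi-likelihood test, with 134 (0.77%) at an unadjusted p below 0.05, and DESeq2 gave 0. With no true difference, a calibrated test would give a share near the threshold itself, so 0.77% marks this test as conservative. Libraries of the same number were taken as independent between treatments, and whether this made it so was not tested. The median standard error of this difference was 0.246 on the log2 scale, so small differences would not be detected and larger ones may be missed. The count does not show that the drug leaves the time effect as it is.

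In medium lacking asparagine 4424 genes passed between 24 h and 6 h (25.4%). Of these 2235 passed in the same direction with asparagine, or 68.2% of the calls with asparagine and 50.5% of those without, and 21 passed in opposite directions. Of the 19 inflammatory genes 18 fell without asparagine too, where 13.2% of all genes fell. CXCL8 had 19.0, 11.1 and 10.6 CPM at 24 h without asparagine, against 233, 517 and 494 CPM at 6 h without it. For CXCL8 the difference between media was -0.14 ± 0.63 on the log2 scale. TNFAIP3 (-0.14 ± 0.45), FOSL1 (-0.20 ± 0.37), INSIG1 (0.08 ± 0.40) and BHLHE41 (-0.10 ± 0.20) likewise had differences that did not pass.

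The difference of the time effect, with minus without asparagine, passed for 213 genes (1.22%), of which 179 were higher with asparagine (1.03%) and 34 were lower (0.195%). Targets of ATF4 and CHOP had more members among them than any other of the 44 lists, with 19 of 32 higher, none lower, and medians of the time effect of -0.10 with asparagine and -1.56 without. CHAC1, a glutathione-degrading enzyme gene that ATF4 induces, had 1.36, 1.60 and 1.46 CPM at 24 h with asparagine and 2.32, 2.29 and 3.24 CPM at 6 h with it. Without asparagine it had 0.995, 1.34 and 0.726 CPM at 24 h and 20.7, 32.1 and 15.3 CPM at 6 h. The difference was 3.63 ± 0.60 (adjusted p = 0.00144, edgeR quasi-likelihood), and the 6 h libraries without asparagine were the ones that stood apart. DDIT4, an inhibitor of mTORC1, differed by 2.88 ± 0.38, KIF21B, a kinesin gene, by 2.46 ± 0.27, and SESN2, a leucine sensor upstream of mTORC1, by 2.17 ± 0.30.

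Of the FOXO list genes that rose with asparagine, only KLHL24 passed for the difference between the media. BCL6 (0.692), SESN1 (0.304), YPEL3 (0.273), RBL2 (-0.006), TRIB2 (-0.085), FOXO4 (-0.085) and INSR (-0.302) did not, nor did CCNG2. The glucocorticoid genes that rose, TSC22D3 and KLF9 (1.334), passed. TSC22D3 rose with asparagine, as given above, and fell without it, with 3.58, 4.98 and 5.95 CPM at 24 h and 9.07, 8.39 and 6.38 CPM at 6 h (-0.71 ± 0.21), a difference of 2.65 ± 0.32 (adjusted p = 9.43e-05, edgeR quasi-likelihood). KLHL24 without asparagine had 15.9, 12.9 and 16.7 CPM at 24 h and 15.5, 10.6 and 10.8 CPM at 6 h, and differed by 1.35 ± 0.30 (adjusted p = 0.0218). At 6 h without asparagine both genes stood near or above the levels given for 24 h with it. The difference of KLHL24 did not pass without 24 h replicate 1 or 3 or 6 h replicate 2 or 3 with asparagine, or without 24 h replicate 2 or 6 h replicate 1 lacking it (adjusted p 0.0526 to 0.0837). From the MondoA and clock lists, HBP1 (1.12 ± 0.19, adjusted p = 0.00148) and NFIL3 (1.00 ± 0.14, adjusted p = 0.000313) showed differences in the same direction. CCNG2 had a difference of 2.06 ± 0.53 that did not pass (adjusted p = 0.0584), and that passed without 24 h replicate 2 with asparagine (0.0303), with the replicate block (0.0178), with DESeq2 (0.00531), with the GC correction (0.0145), in the groups alone (0.0198) and under either other filter on low counts (0.0472 and 3.03e-11). HBP1, NFIL3, KLHL24, CCNG2, KLF9 and the other FOXO list genes were named for this difference after their values were seen. Among the genes whose difference was negative, PPARGC1B, a coactivator of mitochondrial genes, and CNNM1, a gene of the CNNM family of membrane proteins, did not pass over time with asparagine (-0.18 ± 0.10 and -0.07 ± 0.11) and rose without it (0.93 ± 0.11 and 1.19 ± 0.12). The 213 calls numbered 155 to 180 when any 1 of the 12 libraries was left out, 358 with DESeq2 and 738 with the GC correction.

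**Figure D4:**
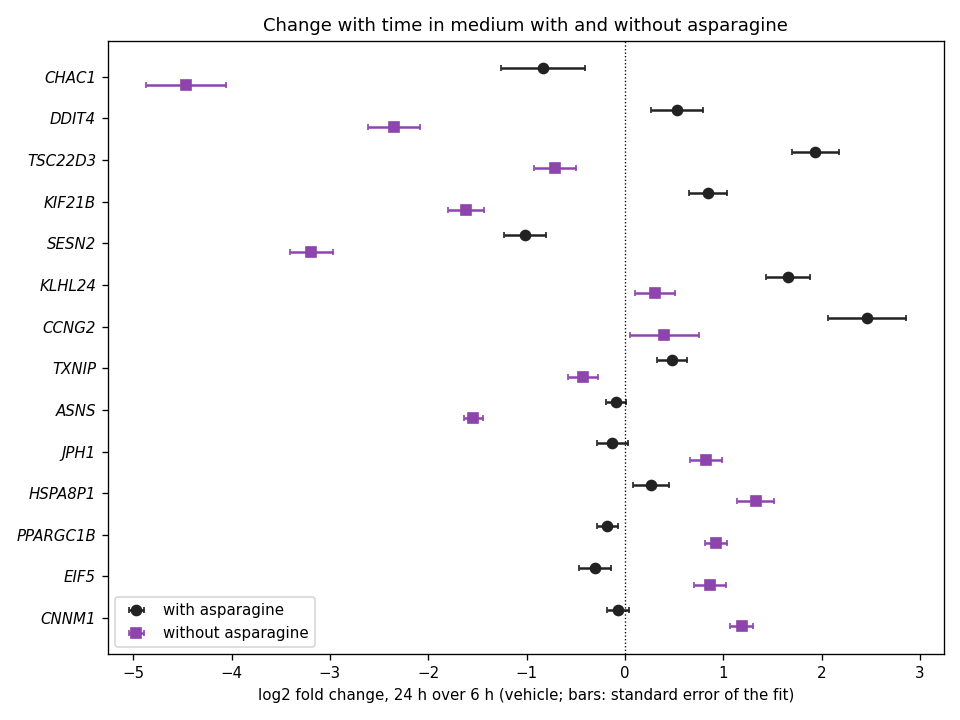
Log2 fold change (24 h over 6 h, horizontal axis) of 14 genes in vehicle-treated cells with asparagine (black circles) and without it (purple squares). Bars are the standard error of the fit, computed from its F statistic. TSC22D3 lies at 1.94 with asparagine and -0.71 without, CHAC1 at -0.83 and -4.46, and CNNM1 at -0.07 and 1.19.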

How the data were processed

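Libraries of PC9 RNA were made with standard Illumina chemistry, per the labels. The submitters' processing notes name Bowtie2, featureCounts, DESeq2 and the build hg38. Versions, roles and strandedness are not given in these notes. A table deposited by the authors held counts, as whole reads per gene, for 37411 genes in 24 libraries. A second table deposited by the authors held log2 values after variance stabilization, with a floor of 3.45, and served as an alternative.

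Genes with low counts were removed by filterByExpr in edgeR 4.0.16 (R 4.3.3), leaving 17409 genes. The removed genes held 0.0751% to 0.0980% of a library, and TMM factors scaled the rest. One mean per group was fitted to all 24 libraries (8 groups of 3, 16 residual degrees of freedom), and 5 contrasts went through edgeR's quasi-likelihood F test, with Benjamini-Hochberg adjustment over all genes tested at a threshold of 0.05. The fit took the 24 libraries as independent. It left out the similar order of libraries of the same replicate number across treatments, for the main contrast too. Values after ± are standard errors on the log2 scale. They were computed as the absolute log2 fold change divided by the square root of the F statistic. Of the identifiers 36620 matched GENCODE release 29. Strand was not stated, so reads of overlapping antisense genes cannot be told apart.

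Members were chosen by label, and the 44 gene lists and tests with earlier results of these data known. The rule named the 15 largest rises and falls of protein-coding genes with a mean of at least 5 CPM and no overlap, up to 4 members per list with the smallest p and up to 2 with the largest, and 5 genes each way for each difference. Of the list symbols 15 were not found among the genes counted, and others did not pass the filter on low counts. Neither kind was analysed here. A few of the genes covered by the rule are not reported here. Lists are described by counts and medians. Some genes belong to several lists, such as VEGFA (hypoxia and ATF4) and PER1 (clock and glucocorticoid). The counts of different lists are therefore not independent of each other. On simulated data for this contrast with 17409 genes, 38% of genes changed 1.5-fold, 74% at 2-fold, 92% at 3-fold and 96% at 4-fold were recovered, with 7 false calls. The simulation changed 50 genes at each fold, far fewer than were called in the data. Alternatives were RLE scaling, DESeq2 1.42.0, limma 3.58.1 on the log2 values, other filters, the compared groups alone, a replicate block, a GC correction by natural spline and each library left out.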

Additional observations from a re-analysis of the deposited data

Results flagged for a closer look

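A test of the difference between media in the change from 6 h to 24 h (edgeR quasi-likelihood, adjusted p below 0.05) picked out 10 genes under the naming rule. The differences, with minus without asparagine on the log2 scale, were 3.632 for CHAC1, 2.878 for DDIT4, 2.651 for TSC22D3, 2.462 for KIF21B and 2.172 for SESN2. They were -1.258 for CNNM1, -1.165 for EIF5, -1.105 for PPARGC1B, -1.066 for HSPA8P1 and -0.958 for JPH1. EIF5 had 1175, 1195 and 1049 CPM at 24 h with asparagine and 1236, 1367 and 1618 CPM at 6 h with it, and 1122, 1129 and 1142 CPM at 24 h without asparagine and 533, 532 and 802 CPM at 6 h without it. HSPA8P1 is a pseudogene of the chaperone gene HSPA8, so its counts may hold reads of that gene and are uncertain, and reads of EIF5 could likewise be split with a pseudogene. Without single libraries the difference of HSPA8P1 did not pass in 9 of 12 cases and that of JPH1 in 8 of 12.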

How the results depend on the processing

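The count of genes that changed between 24 h and 6 h in vehicle with asparagine (3275) was 5552 with the GC correction, 6054 with the replicate block and GC correction together, 5203 when 3 libraries whose GC slope was lowest were omitted (all with ISRIB, and chosen after seeing the data), and 2109 to 2811 with 1 of the 6 libraries left out. For ISRIB with asparagine (3024) it was 967 in a fit to these groups alone, 5333 and 5777 with the GC correction without and with the block, and 1799 to 3481 with 1 library left out. For vehicle without asparagine (4424) it was 6667 and 7151. The difference between media (213) gave 358 with DESeq2, 321 with the groups alone, 738 and 1008 with the GC correction without and with the block, and 491 without the 3 libraries. The cause of these shifts was not tested. The difference between vehicle and ISRIB gave 0 calls by edgeR, DESeq2 and each other setting run, with 134 genes at an unadjusted p below 0.05 in edgeR. That is fewer than a calibrated test gives when no gene differs, so the 0 calls may miss real differences. Replicate numbers did not pair the libraries of the 2 times in vehicle with asparagine (correlations of deviations -0.008, 0.126 and -0.09). With the replicate block 3719 genes were called. Pairing by replicate number between treatments was not tested. Of 271 genes followed over time 42 lost and 31 gained the call under at least 1 of 16 settings. Counted over genes and settings, signs changed 184 times without passing, and once in a value that passed, for SKIL (main value 0.02, not passed), at -0.131 with the replicate block and GC correction. At 3 libraries a group a 1.5-fold change was recovered in 38% of simulated cases. The simulation changed only 50 genes at each fold, whereas 18.8% of genes were called in the data. The adjusted threshold was therefore stricter in the simulation, and its recovery does not carry over to this contrast. Small changes may still be missed.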
